A study of Mus musculus with 6 samples.

Results

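The 10 genes described here belong to extracellular nucleotide signalling and were followed in 6 RNA sequencing libraries of mouse bone marrow-derived macrophages: the channel gene Panx1, the ATP-gated channels P2rx4 and P2rx7, the nucleotide receptors P2ry2, P2ry6 and P2ry12, the ectonucleotidases Entpd1 and Nt5e, and the adenosine receptors Adora2a and Adora2b. They were taken by gene symbol from the single deposited table, in which all 10 were found among 38087 genes and all 10 had values above 0 in every library. The group was chosen by gene name together with its measured values in these same libraries, in which Panx1 was lower with RvD1. All differences between RvD1 and untreated libraries for the 10 genes are therefore given as a description, with the standard error (SE) of the fit and no p-value. Where the text says that a member was past the threshold of the fit over all genes, that is part of the description too, and nothing rests on it.

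The treated cultures were exposed to 10 nM resolvin D1 (RvD1), a lipid mediator made from docosahexaenoic acid, for 6 h (3 libraries), and the other cultures were left untreated (3 libraries). In both groups the marrow donors were C57BL/6J males, 8 to 10 weeks old, and the cells grew for 7 days in 10 ng/ml macrophage colony-stimulating factor and were replated for 24 h without it. By its title the series concerns ALX/FPR2, a receptor for RvD1, in myeloid cells and limb ischemia, and the labels describe no vehicle for the untreated cultures. The labels do not tell whether replicates were different animals or dishes, so the spread between them may be technical.

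Cells release ATP through pannexin channels, among other routes, and ATP outside the cell signals danger or attracts phagocytes. P2X receptors are ion channels opened by ATP, and P2Y receptors are G protein-coupled receptors for ATP, UTP, ADP or UDP. Surface enzymes then strip the phosphates: CD39, encoded by Entpd1, turns ATP and ADP into AMP, and CD73, encoded by Nt5e, turns AMP into adenosine, which acts on adenosine receptors and generally restrains macrophage inflammatory output. In macrophages, P2X7 is best known for triggering the NLRP3 inflammasome.

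Values are log2 normalized read numbers as deposited. Depth, estimated from the spacing of low values, was 11.2 to 16.3 M reads in RvD1 libraries and 9.05 to 14.3 M in untreated libraries. All 7 macrophage markers were present in every library, with Csf1r, the receptor for macrophage colony-stimulating factor, at 14.09 to 14.39 in RvD1 and 14.08 to 14.38 in untreated libraries. All 4 fibroblast and stroma markers were present too, and the collagen gene Col1a1 stood at 13.83 to 14.39 in RvD1 and 14.10 to 14.30 in untreated libraries. Markers of neutrophils (6 of 6) and endothelium (3 of 3) were also above 0 throughout, whereas the T cell markers Cd3e and Cd3g and the B cell marker Ms4a1 were listed at 0 everywhere. In bulk cultures, fewer cells of a type and less RNA per cell cannot be told apart.

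The sequences before the transcription starts of Panx1, P2rx7 and Entpd1 are shown because these were the members whose groups did not overlap. Each is the stretch of 250 bases that ends just before the annotated start, 5′ to 3′ on the gene's strand, from RefSeq on GRCm38.p6. P2rx7 and Entpd1 have 2 annotated starts each, and the upstream one is shown. Capitals mark matches on either strand to GGGCGG (the GC box bound by SP1), TGANTCA (the AP-1 site) or TGACNNNGC (the core of the antioxidant response element).
Panx1, chr9:15045479-15045728, minus strand: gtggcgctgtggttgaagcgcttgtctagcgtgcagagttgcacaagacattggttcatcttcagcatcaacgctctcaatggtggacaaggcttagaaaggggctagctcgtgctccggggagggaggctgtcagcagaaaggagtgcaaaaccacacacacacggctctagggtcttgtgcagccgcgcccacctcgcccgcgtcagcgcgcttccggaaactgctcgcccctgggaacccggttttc
P2rx7, chr5:122643677-122643926, plus strand: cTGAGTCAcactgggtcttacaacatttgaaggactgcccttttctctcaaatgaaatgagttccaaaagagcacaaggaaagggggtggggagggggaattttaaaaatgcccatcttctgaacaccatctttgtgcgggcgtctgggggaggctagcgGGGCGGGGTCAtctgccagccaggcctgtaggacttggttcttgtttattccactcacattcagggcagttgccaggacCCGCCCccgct
Entpd1, chr19:40612116-40612365, plus strand: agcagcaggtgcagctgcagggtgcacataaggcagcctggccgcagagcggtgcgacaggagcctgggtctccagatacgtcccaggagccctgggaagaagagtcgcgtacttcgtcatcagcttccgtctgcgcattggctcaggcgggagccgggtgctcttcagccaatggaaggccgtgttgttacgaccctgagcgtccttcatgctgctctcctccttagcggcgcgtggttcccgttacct

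The Panx1 stretch held 17 CpG dinucleotides and had a GC content of 59.6%, and none of these motifs occurred in it. The Entpd1 stretch held 18 CpG at 62.4% GC and likewise had no match, nor did the one before its downstream start. The P2rx7 stretch held 6 CpG at 53.6% GC, with GGGCGG at 2 places, TGANTCA at 1 and TGACNNNGC at 1, the last overlapping a GGGCGG. The stretch before its downstream start had no match to any of the 3. Among 32841 RefSeq stretches of the same length, 32.7% held GGGCGG, 6.75% TGANTCA and 10.2% TGACNNNGC. A match is a description of the letters only. Of the 10 genes, 8 had an entry, and P2ry6 and Adora2a had none.

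Panx1 encodes pannexin 1, a large-pore membrane channel through which ATP leaves the cell. Its gene lies on chromosome 9 from 15002128 to 15045478 on the minus strand (mm10, protein-coding). Panx1 stood at 8.22, 8.36 and 8.16 in RvD1 replicates 1, 2 and 3, against 8.75, 8.89 and 9.12 in untreated replicates 1, 2 and 3 (log2). Every RvD1 library lay below every untreated library, with a gap of 0.40 between the nearest libraries of the 2 groups. The level reached 0.626 of the untreated one (log2 difference -0.68, SE 0.10, n = 3 per group). These values rest on an estimated 287 to 389 reads in RvD1 and 354 to 536 reads in untreated libraries.

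**Figure D1:**
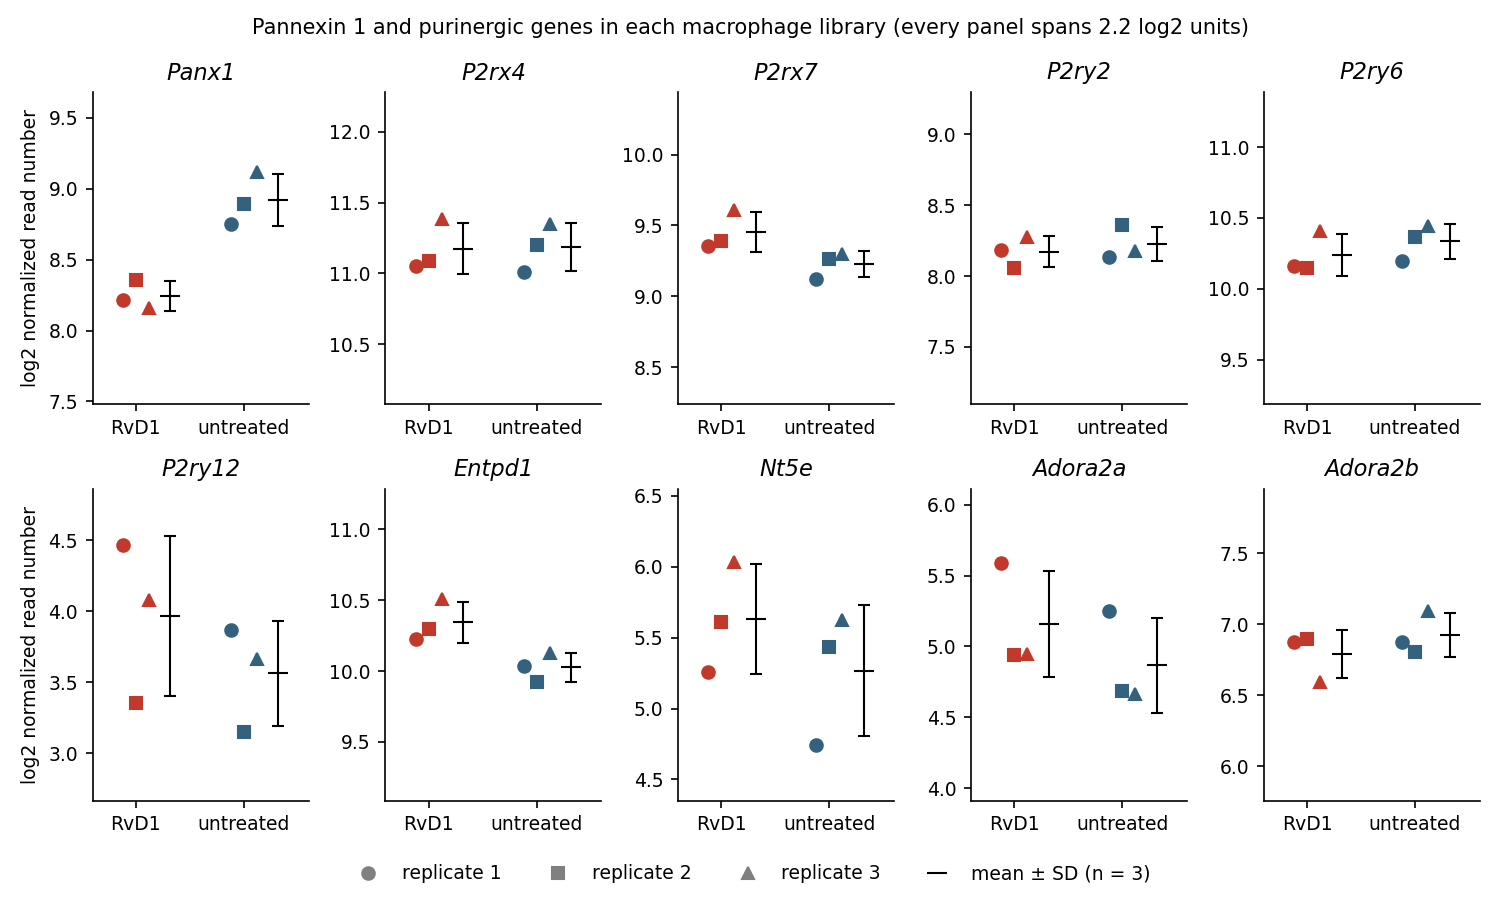
Log2 normalized read number (y axis, each panel spanning 2.2 units) of the 10 genes in 3 RvD1 libraries (red, left) and 3 untreated libraries (blue, right), with marker shapes for replicate numbers and black bars for the mean and SD of 3 libraries. The groups are apart for Panx1, P2rx7 and Entpd1, with Panx1 lower and the other 2 higher in RvD1 libraries.

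Panx1 was the 1 member of 10 past the threshold of the limma fit over all genes (Benjamini-Hochberg adjusted p under 0.05), which 1.12% of the 18899 tested genes passed, 0.556% as lower and 0.561% as higher. Since that contrast helped to choose the group, nothing is read from this count. Of the 13176 genes averaging at least 5 on the log2 scale, 42 had a more negative difference than Panx1. Among the fits without 1 library its difference ran from -0.76 to -0.58, and it was past the threshold in the one without RvD1 replicate 1 but not in those without RvD1 replicate 2 or 3 or untreated replicate 1, 2 or 3. After correction for transcript length and GC content the difference was -0.74, and the adjusted p missed the threshold, as it did with no filter on low values (limma). Taken against the mean of the 7 macrophage markers, an alternative chosen after seeing the data, it was -0.73.

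P2rx7 and P2rx4 are neighbours on chromosome 5, 16.1 kb apart on the plus strand (122643911 to 122691432 and 122707544 to 122729738, mm10). P2X7 is the ATP-gated channel that opens at high ATP and drives potassium loss. P2rx7 stood at 9.36, 9.39 and 9.61 in RvD1 replicates 1, 2 and 3, against 9.12, 9.26 and 9.30 in untreated replicates 1, 2 and 3 (log2). The groups did not overlap, with a gap of 0.06 between the nearest libraries (log2 difference 0.22, SE 0.08). Exons of P2rx7 share 119 bases with the microRNA gene Mir8115 on the same strand. P2X4 is a more ATP-sensitive channel found largely in lysosomes of macrophages. P2rx4 stood at 11.05, 11.09 and 11.38 in RvD1 replicates 1, 2 and 3, against 11.01, 11.20 and 11.35 in untreated replicates 1, 2 and 3 (log2). The groups overlapped, with a log2 difference of -0.01 (SE 0.11).

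Within a library the P2rx7 value minus the P2rx4 value was -1.69, -1.70 and -1.77 in RvD1 replicates 1, 2 and 3 and -1.89, -1.94 and -2.05 in untreated replicates 1, 2 and 3. These 2 sets did not overlap. Such differences are not corrected for transcript length, so they compare the groups and not the 2 genes. For Panx1 minus P2rx7 the values were -1.14, -1.03 and -1.45 in RvD1 and -0.37, -0.37 and -0.18 in untreated replicates 1, 2 and 3. The group means of this quantity differed by -0.90 (log2), a larger size than that of Panx1 alone because the 2 genes differed in opposite directions. Panx1 minus Entpd1 is given below. The groups overlapped for the other pairs compared. Their group means differed by -0.05 for Entpd1 minus Nt5e, -0.05 for P2ry6 minus P2ry2 and -0.43 for Adora2b minus Adora2a. How often pairs of genes in general were apart was not counted.

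The P2Y receptors did not separate the groups. P2Y2, a receptor for ATP and UTP that guides phagocytes to dying cells, had P2ry2 values of 8.19, 8.06 and 8.27 in RvD1 replicates 1, 2 and 3, against 8.14, 8.36 and 8.17 in untreated replicates 1, 2 and 3 (log2 difference -0.05, SE 0.09). Its sign differed with processing, at 0.07 after the length and GC correction. P2Y6, a receptor for UDP linked to phagocytosis in microglia, had P2ry6 values of 10.16, 10.15 and 10.41 in RvD1 replicates 1, 2 and 3, against 10.20, 10.37 and 10.44 in untreated replicates 1, 2 and 3. The difference of P2ry6 was -0.10 (SE 0.09) as deposited and 0.03 after the same correction. P2ry6 and P2ry2 lie 21.9 kb apart on chromosome 7, both on the minus strand (100937630 to 100974649 and 100996568 to 101012866).

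P2ry12 (chromosome 3, 59216272 to 59262871, minus strand) encodes the ADP receptor of platelets and microglia, and it was among the least abundant of the 10 genes. It stood at 4.47, 3.35 and 4.08 in RvD1 replicates 1, 2 and 3, against 3.87, 3.15 and 3.67 in untreated replicates 1, 2 and 3 (log2 difference 0.41, SE 0.34). After the length and GC correction its difference was 0.23. In reads these were about 29, 9 and 17 in RvD1 and about 12, 10 and 9 in untreated replicates 1, 2 and 3. The 95% Poisson interval of the highest, 19.4 to 41.6 reads, was taken on the estimated number rounded to a whole read. It is approximate and covers counting error only. Exons of P2ry12 share 9 bases with Med12l on the opposite strand, and the library kit as described in the labels does not mention strand.

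Of the 2 enzymes, Entpd1 separated the groups and Nt5e did not. Entpd1 (chromosome 19, 40612366 to 40741602, plus strand) stood at 10.22, 10.30 and 10.51 in RvD1 replicates 1, 2 and 3, against 10.03, 9.92 and 10.13 in untreated replicates 1, 2 and 3 (log2). The nearest libraries of the 2 groups were 0.10 apart, and the log2 difference was 0.31 (SE 0.09), or 1.24-fold. After the length and GC correction it was 0.20. Nt5e (chromosome 9, 88327197 to 88372092, plus strand) stood at 5.26, 5.61 and 6.03 in RvD1 replicates 1, 2 and 3, against 4.75, 5.43 and 5.62 in untreated replicates 1, 2 and 3 (log2 difference 0.37, SE 0.28). Its difference was larger than that of Entpd1 but so was its SE, and it rests on about 43 to 66 reads in RvD1 and 22 to 49 in untreated libraries. Panx1 minus Entpd1 was -2.01, -1.94 and -2.35 in RvD1 and -1.28, -1.03 and -1.01 in untreated replicates 1, 2 and 3. All 3 RvD1 values lay below all 3 untreated values. This follows from the opposite separation of the 2 genes and adds nothing to it.

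Both adenosine receptors couple to Gs and raise cyclic AMP, and the product of Adora2a binds adenosine more tightly than that of Adora2b. Adora2a (chromosome 10, 75316877 to 75334784, plus strand) stood at 5.59, 4.94 and 4.95 in RvD1 replicates 1, 2 and 3, against 5.25, 4.68 and 4.67 in untreated replicates 1, 2 and 3 (log2 difference 0.29, SE 0.25). After the length and GC correction its difference was 0.45. Replicate 1 was the highest in both groups, and the groups overlapped. Adora2b (chromosome 11, 62248984 to 62266453, plus strand) stood at 6.88, 6.89 and 6.59 in RvD1 replicates 1, 2 and 3, against 6.87, 6.80 and 7.10 in untreated replicates 1, 2 and 3 (log2 difference -0.13, SE 0.13).

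In all, the groups did not overlap for 3 of the 10 genes, 2 of them higher and 1 lower in RvD1, where 25.4% of all tested genes had groups apart (12.6% higher, 12.8% lower). That share is near the background. Single libraries moved most of these differences. Leaving out 1 library gave 0.16 to 0.71 for P2ry12, 0.10 to 0.55 for Nt5e, 0.08 to 0.48 for Adora2a and -0.20 to -0.04 for Adora2b (log2). The same ranges were 0.15 to 0.27 for P2rx7, 0.23 to 0.37 for Entpd1 and -0.18 to -0.04 for P2ry6. The sign differed between these fits for P2rx4 (-0.12 to 0.07) and P2ry2 (-0.10 to 0.02). The differences were positive for 5 and negative for 5 members, with a median of 0.11 on the log2 scale, against 0.0044 over all tested genes.

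**Figure D2:**
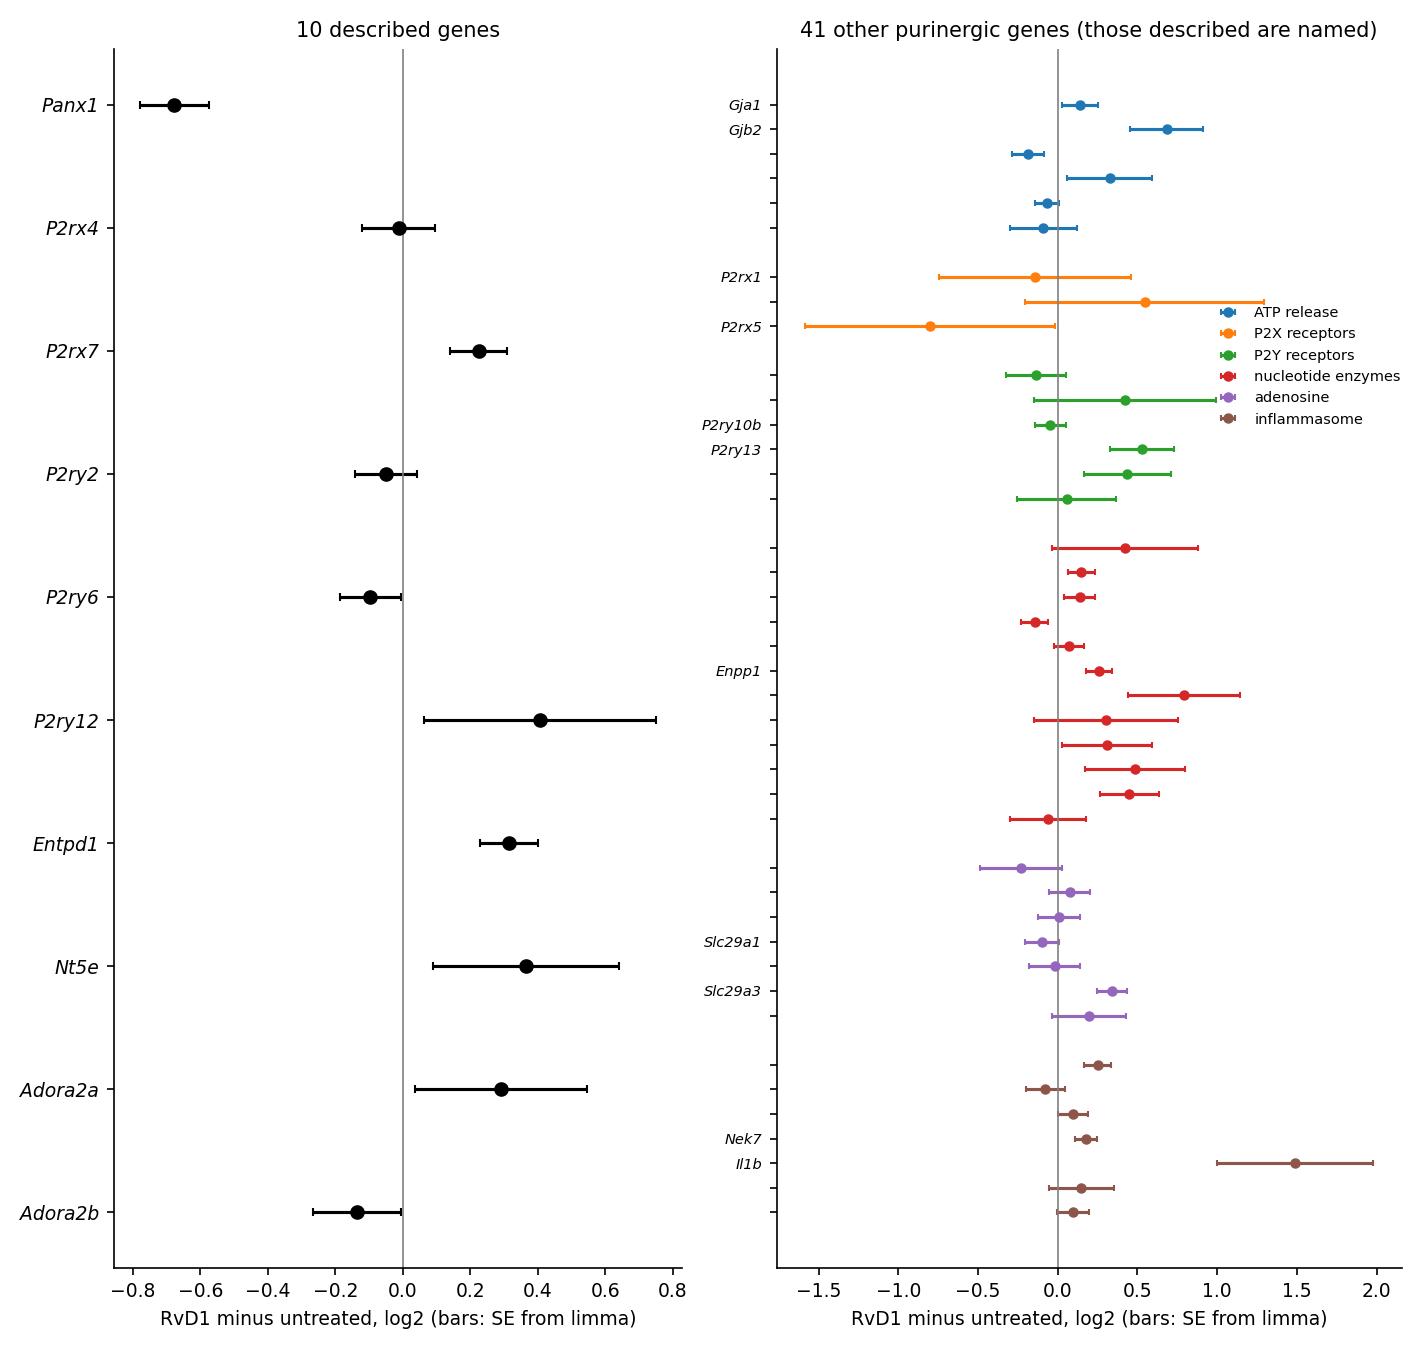
RvD1 minus untreated difference (x axis, log2 scale; points with SE from limma over 6 libraries) for the 10 described genes (left) and for 41 of the 43 other purinergic genes, coloured by list, with names for those the text describes (right). Panx1 is at -0.68, and among these 41 genes none passed the limma test over all genes.

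Per kb of exon, P2ry6 had the highest level of the 10 genes, followed by P2rx4, Entpd1 and P2rx7, in RvD1 and in untreated libraries alike. P2ry6 averaged 8.71 ± 0.15 in RvD1 and 8.81 ± 0.12 in untreated libraries (log2 normalized reads per kb, SD, n = 3). P2rx4 averaged 8.36 ± 0.18 in RvD1 and 8.37 ± 0.17 in untreated libraries, and the libraries of each neighbouring pair among these leading 4 genes were apart in both groups. With the longest transcript as the length instead of all exons, P2ry6 and P2rx4 overlapped. Panx1 averaged 5.65 ± 0.10 in RvD1 libraries, where it ranked the 7th, and 6.33 ± 0.18 in untreated libraries, where it ranked the 5th (log2 per kb). In untreated libraries Panx1 overlapped P2ry2 (6.25 ± 0.12) and Adora2b (6.04 ± 0.15). In RvD1 libraries it overlapped Adora2b (5.90 ± 0.17) and lay below P2ry2 (6.20 ± 0.11). Adora2a, P2ry12 and Nt5e formed the low end, at 3.54 ± 0.37, 2.62 ± 0.57 and 2.53 ± 0.39 in RvD1 and 3.25 ± 0.33, 2.21 ± 0.37 and 2.16 ± 0.46 in untreated libraries (log2 per kb). P2ry12 and Nt5e overlapped in both groups. With the longest transcript as the length, Nt5e lay above P2ry12 with libraries apart in both groups. Panx1 then ranked the 6th in untreated libraries, where it lay above Adora2b without overlap.

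**Figure D3:**
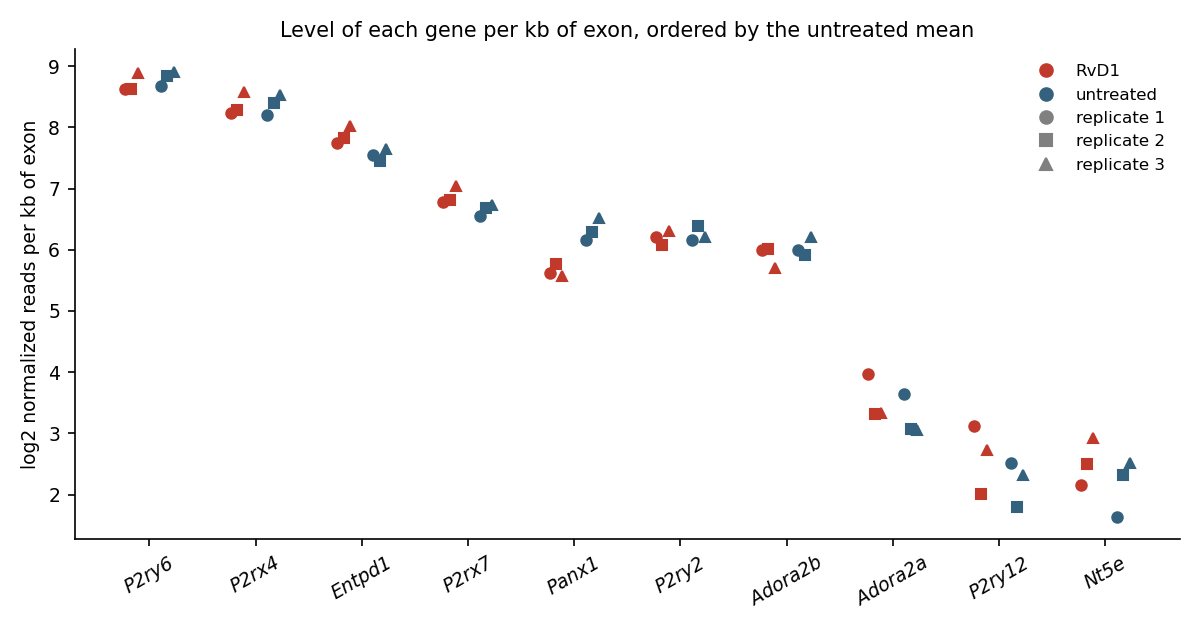
Level of each gene per kb of exon (y axis, log2 normalized reads per kb) in RvD1 (red) and untreated (blue) libraries, with marker shapes for replicate numbers and genes ordered by the untreated mean. P2ry6 and P2rx4 stand above 8 in every library, and Panx1 is the gene whose 2 groups lie farthest apart without overlap.

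Several members differed between same-numbered libraries in a shared way. P2rx4, P2rx7, P2ry6, Entpd1 and Nt5e (5 of 10) were highest in replicate 3 of both groups, and P2ry12 and Adora2a (2 of 10) in replicate 1 of both. The share of all genes with such a pattern was not counted. Over 13176 genes, deviations from the group mean correlated at 0.301, -0.0801 and 0.417 between libraries numbered 1, 2 and 3. Libraries numbered 1 and 3 thus deviated together over these genes as a whole too. The correlations do not tell whether the members share the pattern more often than other genes. The summed level of the 7 macrophage markers was also highest in replicate 3, at 16.61 to 16.96 in RvD1 and 16.56 to 16.94 in untreated libraries (log2). That of the 6 neutrophil and granulocyte markers ran from 11.95 to 13.32 in RvD1 and from 11.51 to 13.32 in untreated libraries, with replicate 3 highest in both. The 3 endothelial markers summed to 8.18 to 9.67 in RvD1 and 7.81 to 8.54 in untreated libraries, with replicate 1 highest in both, as for the 4 stromal markers (14.89 to 15.42 in RvD1, 15.06 to 15.27 in untreated). The T cell list summed to 5.85 to 7.26 in RvD1 and 5.92 to 6.88 in untreated libraries, with 2 of its 4 markers listed at 0. The 3 mast cell markers summed to 5.60 to 7.02 in RvD1 and 5.14 to 6.04 in untreated libraries, with the largest difference of group means among the 9 lists (0.82). The megakaryocyte list ran from 6.32 to 7.03 in RvD1 and from 6.58 to 6.96 in untreated libraries. The B cell list ran from 5.08 to 5.39 in RvD1 and from 4.83 to 5.52 in untreated libraries, and the dendritic cell list from 5.94 to 6.13 in RvD1 and from 5.72 to 6.12 in untreated libraries. The part of these cell types in the members' values was not tested. None of the 9 marker lists had groups apart, and 0 of their markers passed the limma test.

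**Figure D4:**
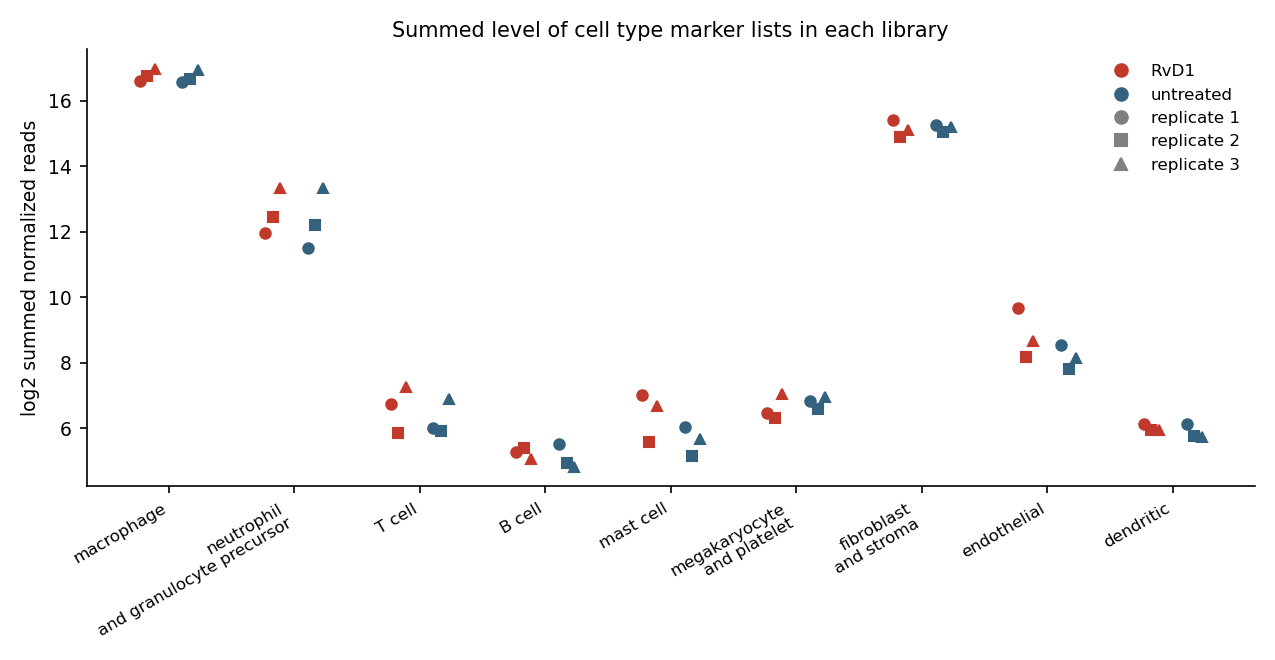
Summed level of each cell type marker list (y axis, log2 of summed normalized reads) in RvD1 (red) and untreated (blue) libraries, with marker shapes for replicate numbers. The 2 groups overlap for every list, while replicates of a group differ by over 1 log2 unit for the neutrophil list in both groups and for the T cell, mast cell and endothelial lists in RvD1 libraries.

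Other genes of the pathway came from lists of 53 genes, all in the table, of which 43 could be tested. None of the 43 rose or fell in limma over all genes (1.12% of all tested genes did). At an unadjusted limma p under 0.05, 8 were higher and 0 lower. This share of the 43 is near the 19.9% of all tested genes at that level in either direction. The direction was not counted over all genes at that level, and the lists were chosen with earlier results known. Nothing is therefore read from the split of 8 to 0. The groups were apart in 6 of the 43, a smaller share than the 25.4% of all tested genes, and 28 differences were positive and 15 negative (median 0.14, against 0.0044 over all tested genes). The other 10 did not pass the filter on low values: the pannexins Panx2 and Panx3, P2rx2, P2rx6, P2ry4, Entpd3, Entpd8, Adora1, Adora3 and Slc28a3. The table carries 2 rows named Adora3, of which the one that GENCODE M21 gives that name was listed at 0 in every library.

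Among channels and ATP release genes, Gjb2, which encodes connexin 26, had the smallest p of 6 (log2 difference 0.68, SE 0.23, limma adjusted p = 0.153). Gja1, which encodes connexin 43, had the highest value of that list, at 10.36 ± 0.23 in RvD1 and 10.22 ± 0.12 in untreated libraries (log2, SD, n = 3). Values of this and the following lists are not corrected for length, so the highest value need not mark the most abundant transcript. Among the 12 tested nucleotide enzymes the smallest p belonged to Enpp1, the ectoenzyme that splits ATP into AMP and pyrophosphate. Enpp1 stood at 10.63, 10.38 and 10.37 in RvD1 replicates 1, 2 and 3, against 10.28, 10.19 and 10.13 in untreated replicates 1, 2 and 3 (difference 0.26, SE 0.08, limma adjusted p = 0.140). Of these 12 enzymes, 10 had positive differences and 2 negative ones, and none passed the limma test. The share of positive differences over all tested genes was not counted, so nothing is read from this split. The row read as Entpd4 has a near copy, Entpd4b, so its value is uncertain.

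Of the adenosine list, Slc29a3, a lysosomal nucleoside transporter, stood at 10.32, 10.51 and 10.63 in RvD1 replicates 1, 2 and 3, against 10.00, 10.17 and 10.28 in untreated replicates 1, 2 and 3. Its groups did not overlap, and it had the smallest adjusted p of all 43 genes (difference 0.34, SE 0.10, limma adjusted p = 0.109). Slc29a1, the main nucleoside transporter of the plasma membrane, had the highest value of the list, at 11.22 ± 0.21 in RvD1 and 11.32 ± 0.11 in untreated libraries (log2, SD, n = 3). Among other P2Y receptors, the ADP receptor gene P2ry13 had groups apart, at 4.66, 4.57 and 4.45 in RvD1 replicates 1, 2 and 3, against 3.99, 4.15 and 3.96 in untreated replicates 1, 2 and 3 (difference 0.53, SE 0.20, limma adjusted p = 0.193). P2ry10b, listed in the table under an older symbol, is in that list by its name only. It had the highest value there, at 7.48 ± 0.14 in RvD1 and 7.53 ± 0.02 in untreated libraries (log2, SD, n = 3).

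The remaining P2X receptor genes were low: P2rx1 averaged 2.76 ± 0.88 in RvD1 and 2.91 ± 1.05 in untreated libraries (log2, SD, n = 3). P2rx5 had 3.52 and 2.18 in RvD1 replicates 1 and 2 and was listed at 0 in replicate 3, against 3.29, 2.38 and 2.44 in untreated replicates 1, 2 and 3. For P2rx5, which had the smallest p of that list, the difference was -0.80 (SE 0.78, limma adjusted p = 0.619). Of the 7 inflammasome genes downstream of P2X7, Il1b had the smallest p, at 4.37, 2.99 and 4.68 in RvD1 replicates 1, 2 and 3, against 1.87, 2.63 and 3.07 in untreated replicates 1, 2 and 3 (limma adjusted p = 0.149). Nek7, a kinase that NLRP3 needs for activation, had the highest value of that list, at 10.65 ± 0.12 in RvD1 and 10.47 ± 0.05 in untreated libraries.

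Over the 6 libraries, the pattern of Panx1 was compared with those of 13175 other genes averaging at least 5 on the log2 scale. The highest Pearson r belonged to Znhit1 (0.992), Gm6257 (0.991), Ampd3 (0.990), Gm10774 (0.987) and Ftsjd1 (0.987). Ampd3 encodes an AMP deaminase, an enzyme of purine nucleotide breakdown, and stood at 9.81, 9.92 and 9.76 in RvD1 replicates 1, 2 and 3, against 10.16, 10.20 and 10.28 in untreated replicates 1, 2 and 3 (log2). Its difference was -0.38 (SE 0.06). The lowest r belonged to Baz1b (-0.997), Zfp846 (-0.996), Magi3 (-0.995), Pign (-0.994) and Eya1 (-0.991). With 6 libraries in 2 groups, such values describe the relative pattern over the libraries, mirrored where r is negative, whatever the size of the differences, and no p is attached. Among the other 9 members r with Panx1 ran from -0.77 for Entpd1 to 0.66 for Adora2b.

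**Figure D5:**
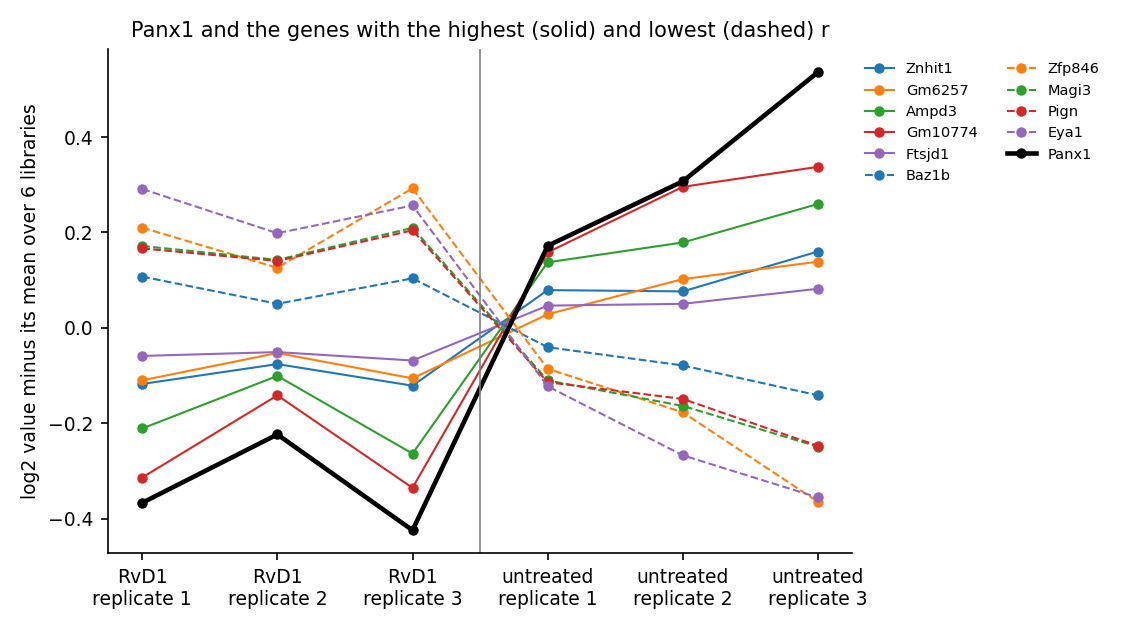
Log2 value minus its mean over the 6 libraries (y axis) for Panx1 (black) and for the 5 genes with the highest (solid) and the 5 with the lowest (dashed) Pearson r with it, RvD1 libraries on the left and untreated libraries on the right. The solid lines are lower in every RvD1 library than in any untreated one, and the dashed lines are higher.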

How the data were processed

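Poly-A selected RNA was sequenced in 6 libraries (3 RvD1, 3 untreated) from 100 to 400 ng of total RNA, per the labels' protocols. TopHat2 2.0.7 and mm10 are named in the submitters' processing notes, while the sources used here do not give the counter, annotation or normalization software. A single table of 38087 genes was deposited, read here as log2 normalized read numbers: "normalized" is the word of the file headers, and the log2 scale was inferred from the values, which run from 0 to 17.4 with decimal commas. Of the values worth few reads, 39.8% to 53.1% per library came within 0.02 of a whole read number. That is too few to recover counts, and no count model was used in the fits.

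Genes above 0 in at least 3 libraries (18899) were fitted on the log2 values as deposited with limma 3.58.1 in R 4.3.3, with a trended variance prior and Benjamini-Hochberg adjustment at 0.05. The procedure was tested on simulated data. Coordinates, exon lengths and current names came from GENCODE M21 (mm10), which held 95.3% of the IDs. The 10 members and all lists were chosen with earlier results of these data known. From each list outside the members the gene with the smallest p and the one with the highest mean value are named, and for the pattern of Panx1 the 5 highest and 5 lowest r, 1 list is not reported here, and other genes were named after their values were seen. Alternatives covered filters, scaling, added reads, the variance prior, a replicate block, length and GC correction, and leaving out each library. Intervals of read numbers are 95% Poisson intervals on estimated reads rounded to whole numbers. They are approximate and cover counting error only.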

Additional observations from a re-analysis of the deposited data

How the results depend on the processing

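Among all genes, 211 passed the test, and this count was 12 with no filter on low values, 1 with no trend of the variance prior, 30 with the length and GC correction, and 0 to 451 when 1 library was left out (451 without RvD1 replicate 1; 0 without RvD1 replicate 2 or 3 or untreated replicate 3; 5 and 3 without untreated replicates 1 and 2). Among the 10 members, 1 passed, against 0 with no filter, with no variance trend and with the length and GC correction, and 0 to 1 when 1 library was left out. Same-numbered libraries deviated from their group means with correlations of 0.301, -0.0801 and 0.417 for replicates 1, 2 and 3. Differently numbered libraries had correlations from -0.393 to 0.0879, so replicates 1 and 3 deviated together more than unlike numbers did. The labels do not say what the numbers mark, so the main fit did not pair the samples. With a replicate block, 1896 of 18899 tested genes passed, with 3 of the 10 members (Panx1, P2rx7 and Entpd1) among them. Since the contrast helped to choose the group, nothing is read from the member counts. From the lists of other purinergic genes, 4 of 43 passed, a share near that of all tested genes under this fit. They were Nek7 (inflammasome list), Enpp1 and Enpp2 (enzyme list) and Slc29a3 (adenosine list). When the length and GC correction was added to the block, 762 of 18549 tested genes passed. These included 1 member (Panx1) and 2 genes of the other lists (Slc29a3 and Enpp2), for the other lists again a share near that of all tested genes. The difference of P2ry2 was 0.068 under the length and GC correction, with and without the replicate block. The cause was not tested for any of these changes. The difference of Panx1 ran from -0.76 to -0.58 over 16 alternatives and was past the threshold in 7 of the 15 with a test. The sign differed from the reported one in 3 of 16 alternatives for P2rx4, 4 for P2ry2 and 2 for P2ry6, and in none for the other 7 members. With the longest transcript as length, untreated levels per kb were 9.22 for P2rx4, 6.93 for P2rx7, 6.63 for P2ry2, 9.38 for P2ry6, 7.95 for Entpd1 and 3.27 for Nt5e. Low read numbers limit P2ry12, Nt5e and Adora2a.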
